A study of Homo sapiens with 17 samples.

Results

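Mitotic genes are the genes whose products carry a cell through division: the cyclins and kinases that start mitosis, the checkpoint that holds it, the kinetochore and spindle that move chromosomes, and the machinery that folds, separates and parts them. Here 47 such genes were followed, chosen by gene symbol, of 62754 genes in the tables. All 47 were found by Ensembl identifier, and all 47 passed the filter on low counts, which left 19473 genes to test.

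RNA was sequenced from 17 libraries of IMR90 ER:RAS cells, a line of human lung fibroblasts carrying a retroviral fusion of activated RAS to an oestrogen receptor domain. The fusion is switched on by 4-hydroxytamoxifen (4OHT), with DMSO as its solvent control, and all groups carried it. Cells were transfected with an siRNA without a target (siNT) or siRNA to SMARCA4 (siSMARCA4) before induction, and RNA was taken 7 days after it. The groups were DMSO siNT with 5 libraries and 4OHT siNT and 4OHT siSMARCA4 with 6 each. DMSO was not combined with siSMARCA4 in the libraries analysed here. The labels also numbered the siRNA, 2 or 4, and tagged replicates with a V or VM ending, whose meaning was not given. VM marked all 6 libraries of 4OHT siNT, whereas the siSMARCA4 libraries were 3 VM and 3 V and the DMSO libraries 3 VM and 2 V. The labels do not say that libraries of a group came from separate cultures, so p-values measure the spread between these libraries. A call is an adjusted p under 0.05 from edgeR's quasi-likelihood test with Benjamini-Hochberg adjustment over the 19473 genes. Levels are counts per 1e6 counts (CPM) scaled by TMM factors, ± gives the SD over libraries where SE is not named, and fold changes are log2.

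Libraries held 39.1 to 69.0 M counts (M, 1e6). SMARCA4, the target of the siRNA and an ATPase that powers the SWI/SNF remodeller of chromatin, stood at 168, 192, 205, 212 and 215 CPM in DMSO siNT. Its lowest, median and highest levels were 253, 264 and 286 CPM in 4OHT siNT and 68.4, 80.5 and 127 CPM in 4OHT siSMARCA4. Each siSMARCA4 library lay below each siNT library, with a log2 fold change of -1.61 against 4OHT siNT (SE 0.13 and adjusted p = 5.14e-07 by edgeR). The fibroblast label was checked against 7 markers, whose summed level was 28394 to 34228 CPM in DMSO siNT, 17810 to 27753 in 4OHT siNT and 9379 to 16541 in 4OHT siSMARCA4. COL1A1, a collagen gene, averaged 10772, 6294 and 2293 CPM in that order, while VIM, which encodes the filament protein vimentin, averaged 5985, 5967 and 5720 CPM. Of the 4 epithelial markers, KRT5 was at 0 in all libraries and the summed level was 31.0 to 47.3 CPM in DMSO siNT and at most 2.64 CPM with 4OHT. KRT19 made up most of it, with means of 38.09, 1.26 and 0.590 CPM against 0.870, 0.386 and 0.213 CPM for EPCAM in the order above. The 4 endothelial markers summed to 0.856 to 1.96 CPM in DMSO siNT, 3.95 to 5.94 CPM in 4OHT siNT and 2.05 to 4.46 CPM in 4OHT siSMARCA4. Of the haematopoietic markers, CD68 was at 19.9 to 30.4 CPM, while PTPRC, CD3E and LYZ reached at most 0.131, 0.0193 and 0.183 CPM and each was at 0 in 1 or more libraries. The part of other cells in the results was not tested.

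Mitotic transcripts are made in a burst late in the cell cycle and are held down in resting cells. In quiescence the DREAM complex, which pairs the MuvB core with a retinoblastoma-family protein and an E2F, sits on their promoters, and in cycling cells MuvB instead joins MYBL2 and then FOXM1 to switch them on. Many of these promoters carry a CHR element (cell cycle homology region), through which MuvB binds, beside CCAAT boxes, which bind the trimeric factor NF-Y.

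Promoters were taken from RefSeq (GRCh38.p14) as 250 bases before to 50 bases after an annotated transcription start, and 42 of the 47 genes were matched in the table of promoters used here. FOXM1, TTK, AURKA, TPX2 and BIRC5 were not analysed for motifs. Each gene counted once, 31 of the 42 (73.8%) held CCAAT, against 42.4% of the 12162 tested genes with an entry and 34.6% of all 35116 promoters of this length. The CHR, searched as TTTGAA or TTCGAA, was found in 31 of 42 (73.8%), against 15.7% of tested genes and 16.4% of all promoters. Both motifs stood together in 23 of 42 (54.8%), against 6.57% of tested genes and 6.38% of all promoters. An E2F motif, searched as TTTGGCGC, TTTCCCGC, TTTGCCGC or TTTCGCGC, was found in 3 of 42 (7.14%), near the 6.34% of tested genes, and in 3.31% of all promoters. Both strands were searched, each motif was searched on its own so that matches may overlap, and a gene with several windows counted as holding a motif where any of them did. The 5 promoters shown are those of the cyclin B1 and CDK1 pair, of PLK1, and of the members with the highest (SPC25) and the lowest (INCENP) fold change with siSMARCA4. Capitals mark CCAAT boxes and CHR matches on either strand, and each sequence reads 5′ to 3′ along its gene. The windows were chr5:69166900-69167199 (plus strand) for CCNB1, chr10:60778081-60778380 (plus) for CDK1, chr16:23678639-23678938 (plus) for PLK1, chr2:168890381-168890680 (minus) for SPC25 and chr11:62123761-62124060 (plus) for INCENP.
CCNB1: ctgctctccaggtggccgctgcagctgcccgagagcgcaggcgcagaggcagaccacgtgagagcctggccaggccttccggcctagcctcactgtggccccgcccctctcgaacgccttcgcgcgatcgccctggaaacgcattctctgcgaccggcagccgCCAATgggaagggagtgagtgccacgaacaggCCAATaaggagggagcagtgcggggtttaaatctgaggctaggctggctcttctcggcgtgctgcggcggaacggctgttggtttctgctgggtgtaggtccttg
CDK1: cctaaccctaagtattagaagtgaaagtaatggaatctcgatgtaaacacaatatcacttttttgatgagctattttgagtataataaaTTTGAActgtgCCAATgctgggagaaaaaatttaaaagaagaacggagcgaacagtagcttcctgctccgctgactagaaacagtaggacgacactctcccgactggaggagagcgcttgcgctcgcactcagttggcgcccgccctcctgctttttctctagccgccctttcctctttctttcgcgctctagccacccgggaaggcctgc
PLK1: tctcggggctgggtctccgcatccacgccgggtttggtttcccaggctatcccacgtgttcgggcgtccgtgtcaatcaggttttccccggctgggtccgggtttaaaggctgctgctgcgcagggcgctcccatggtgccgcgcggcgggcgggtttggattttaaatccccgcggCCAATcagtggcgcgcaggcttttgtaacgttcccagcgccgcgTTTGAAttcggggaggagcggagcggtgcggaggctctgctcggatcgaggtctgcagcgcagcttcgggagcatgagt
SPC25: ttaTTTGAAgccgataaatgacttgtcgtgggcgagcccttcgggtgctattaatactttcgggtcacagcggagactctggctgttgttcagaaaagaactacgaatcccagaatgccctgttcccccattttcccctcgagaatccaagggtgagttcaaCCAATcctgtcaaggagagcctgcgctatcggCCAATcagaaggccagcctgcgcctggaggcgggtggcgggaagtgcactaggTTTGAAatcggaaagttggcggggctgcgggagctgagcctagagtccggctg
INCENP: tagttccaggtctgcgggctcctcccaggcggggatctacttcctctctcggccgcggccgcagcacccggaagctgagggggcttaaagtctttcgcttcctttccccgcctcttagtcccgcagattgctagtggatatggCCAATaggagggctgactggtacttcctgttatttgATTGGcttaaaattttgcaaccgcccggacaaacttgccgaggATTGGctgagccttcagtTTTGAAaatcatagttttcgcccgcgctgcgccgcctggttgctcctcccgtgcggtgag

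CCNB1 held 2 CCAAT boxes and no CHR match in its window. CDK1 and PLK1 held 1 of each, SPC25 held 2 of each, and INCENP held 3 CCAAT boxes and 1 CHR match. CDK1 had 2 windows, and only 1 of them is shown and counted here. A match describes the letters only, and the absence of one says nothing of binding outside the window.

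**Figure D1:**
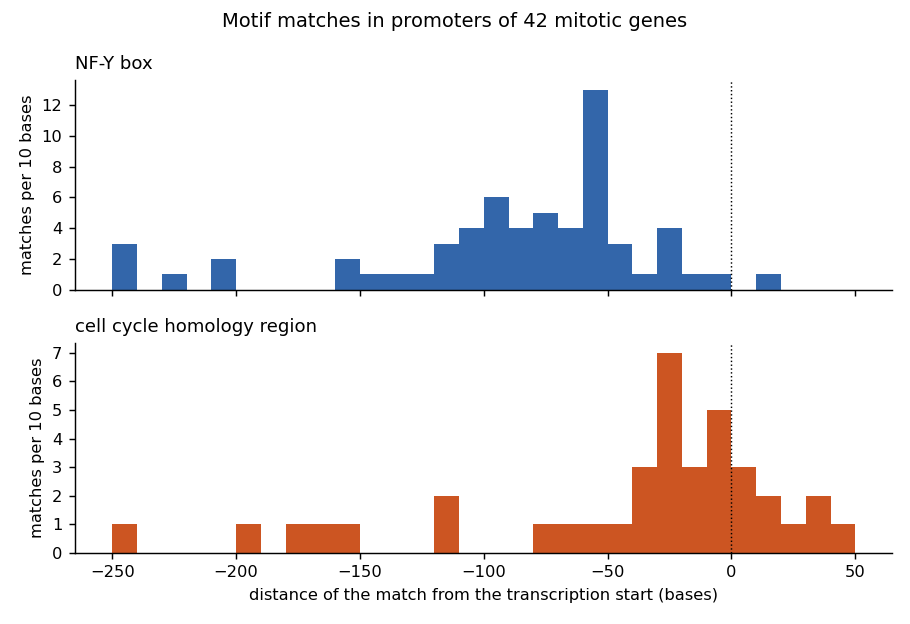
Histograms of the distance in bases between the transcription start (0, dotted line) and each motif match in the first window of the 42 genes, in bins of 10 bases. The NF-Y box is CCAAT on either strand and the cell cycle homology region is TTTGAA or TTCGAA on either strand. Of 61 CCAAT matches, 42 lay from -120 to -40, and of 38 CHR matches, 27 lay from -40 to 50.

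In these promoters the 2 motifs took different places. CCAAT matches had a median position of -74 from the start, with quartiles at -107 and -54, and 13 of 61 fell in the 10 bases that begin at -60. CHR matches had a median of -24.5, with quartiles at -53 and -3. Among members called higher with siSMARCA4 (described further on), 12 of the 15 with a promoter held a CHR match and 9 held CCAAT, and among members not called 18 of 26 and 21 of 26 did.

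All 47 mitotic genes were lower in 4OHT siNT than in DMSO siNT. In this comparison 27.4% of all genes tested were called lower, and the median log2 fold change was -4.04 for the mitotic genes and 0.00 for all genes. The largest adjusted p among the 47 was 0.000801. For 46 of the 47, each 4OHT siNT library lay below each DMSO library, which held for 20.0% of all genes tested. INCENP was the exception. The median gene kept 6.08% of its DMSO level, 33 of 47 kept under 10% and 19 kept under 5%. In such bulk RNA, fewer dividing cells and less of each transcript per cell cannot be told apart.

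**Figure D2:**
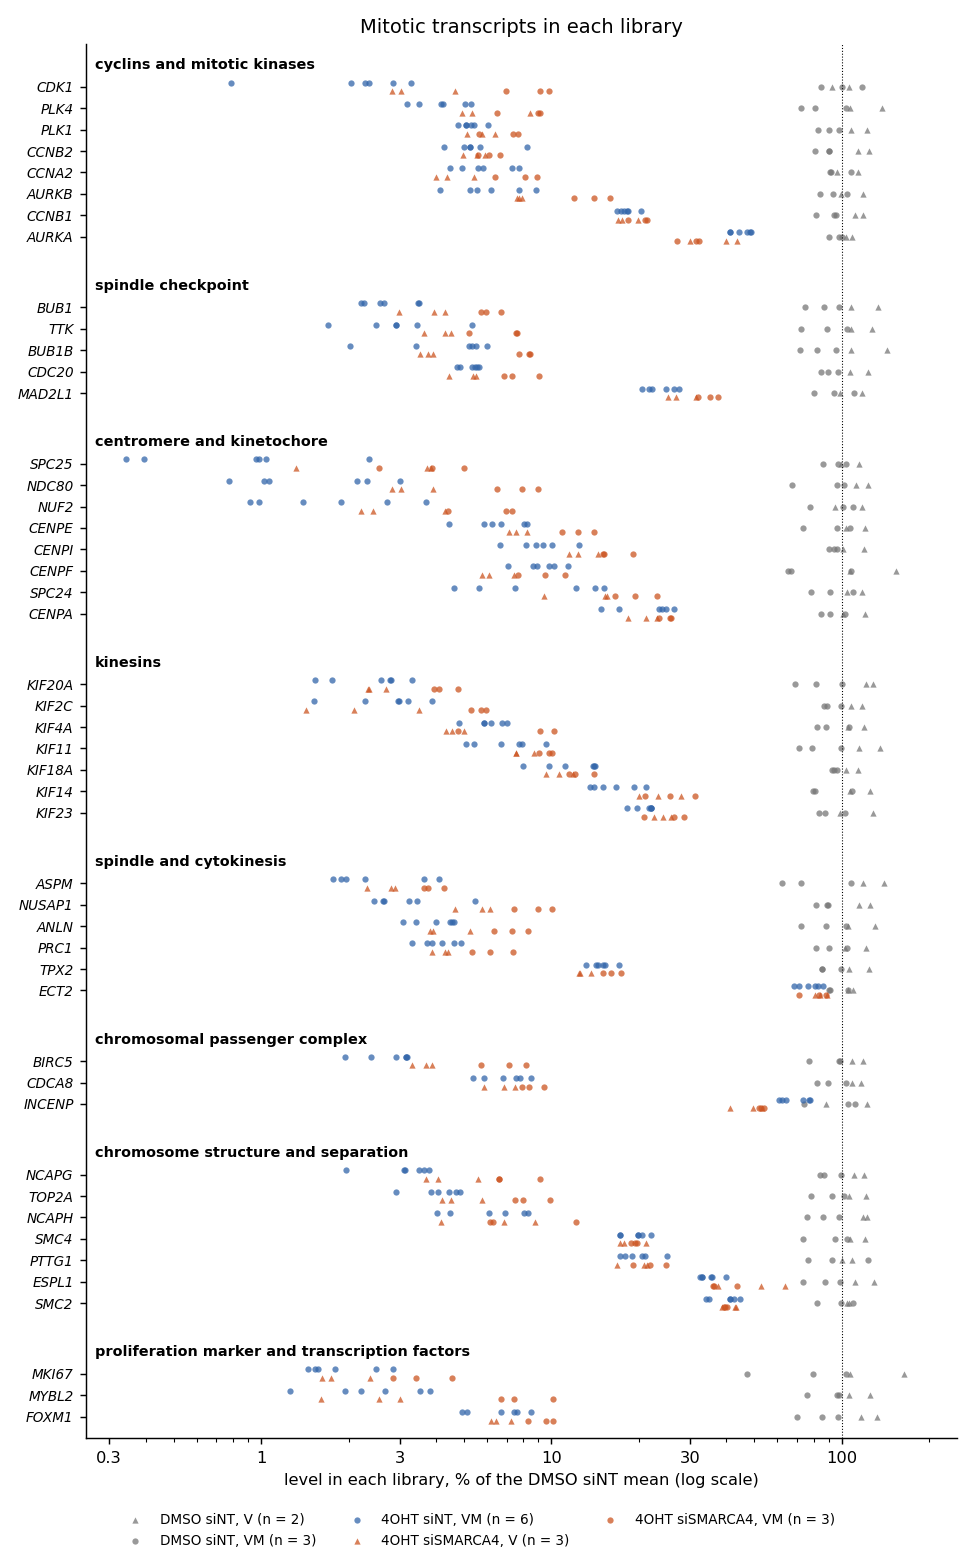
Level of each of the 47 mitotic genes in each library, as a percentage of that gene's DMSO siNT mean on a log scale, grouped by role and ordered within a role by the 4OHT siNT mean. Circles are libraries tagged VM and triangles those tagged V. The 4OHT libraries lie below the DMSO libraries for nearly all genes, ECT2 and INCENP stay closest to 100%, and the siSMARCA4 VM libraries sit to the right of the V libraries for 30 genes with no overlap.

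The 2 largest log2 falls were those of kinetochore genes. SPC25, a subunit of the NDC80 complex that couples kinetochores to microtubules, was 5.50, 6.37, 4.75, 5.71 and 5.37 CPM in DMSO siNT. In 4OHT siNT its lowest, median and highest levels were 0.0189, 0.0539 and 0.131 CPM, which is 1 to 5 counts a library. That was 1.01% of the DMSO mean (log2 fold change -6.62 with an SE of 0.31, adjusted p = 3.38e-12 by edgeR). SPC25 passed the filter on low counts only through the DMSO siNT libraries, which held 274 to 320 counts each. NDC80, which gives the complex its name, was 13.9, 15.2, 8.33, 12.6 and 11.97 CPM in DMSO siNT. With 4OHT its levels ran from 0.0959 through a median of 0.198 to 0.374 CPM (log2 fold change -5.85 with an SE of 0.35, adjusted p = 9.6e-11 by edgeR). For both genes the lowest DMSO library was far above the highest 4OHT siNT library.

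MKI67, which encodes the proliferation antigen Ki-67, was 48.2, 73.7, 36.0, 46.8 and 21.2 CPM in DMSO siNT. In 4OHT siNT it ran from 0.654 through a median of 0.761 to 1.29 CPM, a log2 fold change of -5.68 (SE 0.32 and adjusted p = 3.98e-11 by edgeR). The DMSO libraries of MKI67 differed among themselves by more than those of most members, yet the lowest of them stayed far above the highest 4OHT siNT library.

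At the other end, the 3 smallest log2 falls were those of ECT2, INCENP and AURKA. ECT2, the exchange factor that turns on RhoA for cytokinesis, was 41.0, 42.7, 35.3, 41.2 and 35.6 CPM in DMSO siNT and from 26.8 through 30.8 to 33.8 CPM in 4OHT siNT. It kept 77.7% of its DMSO level (log2 fold change -0.36 with an SE of 0.08, adjusted p = 0.000801 by edgeR), and its groups did not overlap. INCENP, the scaffold of the chromosomal passenger complex, was 19.5, 27.0, 23.1, 24.5 and 16.4 CPM in DMSO siNT and from 13.5 through 15.2 to 17.1 CPM in 4OHT siNT. Its log2 fold change was -0.53 (SE 0.12 and adjusted p = 0.000719 by edgeR), and the lowest DMSO library lay inside the 4OHT siNT range. AURKA, a kinase that matures the spindle poles, was 39.6, 41.7, 34.7, 38.4 and 37.5 CPM in DMSO siNT and from 15.8 through 17.5 to 18.7 CPM in 4OHT siNT. It kept 45.2% of its DMSO level, with no overlap (log2 fold change -1.15 with an SE of 0.10, adjusted p = 2.89e-08 by edgeR).

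The knockdown of SMARCA4 in the 4OHT-treated cells was then compared with 4OHT siNT. The mitotic genes were called in part: 17 of 47 were called higher and 2 lower, and 28 were not called. Of all genes tested, 10.4% were called higher and 13.8% lower. The median log2 fold change was 0.36 for the mitotic genes and -0.02 for all genes, and 41 of 47 had a fold change above 0. This contrast and the one above share the 4OHT siNT libraries, so a low value there enters both. The siSMARCA4 libraries lay wholly above the siNT libraries for BIRC5 alone, 1 of 47 against 4.54% of all genes tested, and wholly below for INCENP alone, 1 of 47 against 7.49%.

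**Figure D3:**
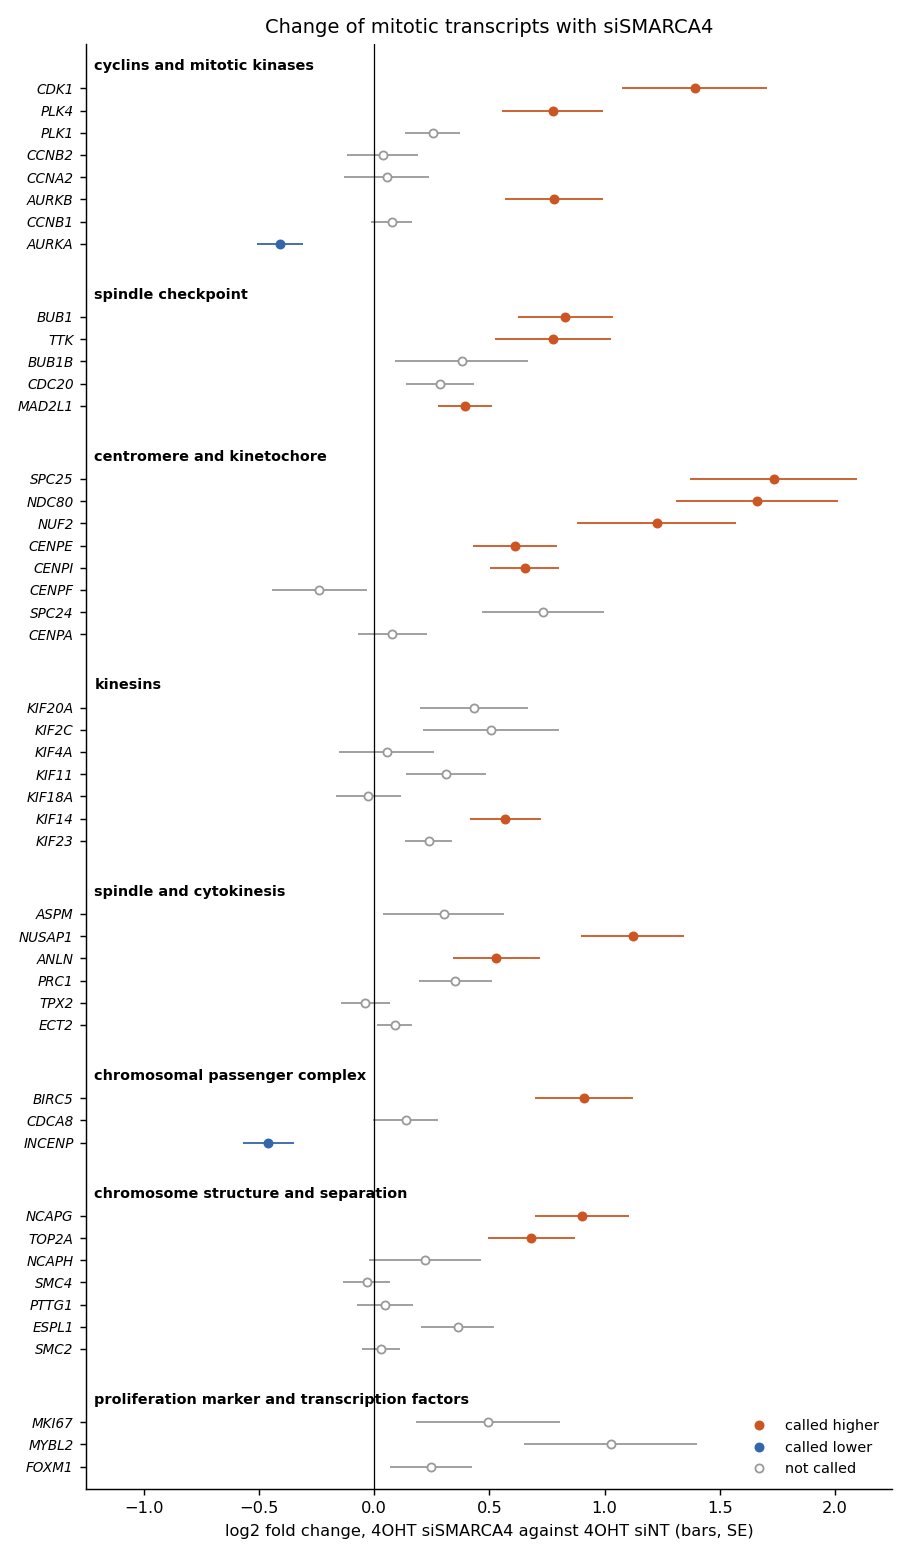
Log2 fold change of each mitotic gene in 4OHT siSMARCA4 (n = 6) against 4OHT siNT (n = 6), by role, with bars of 1 SE and filled points for calls at an adjusted p under 0.05. The highest values are those of SPC25, NDC80, CDK1, NUF2 and NUSAP1, and the values called lower are INCENP and AURKA.

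The 5 largest rises included 3 of the 4 subunits of the NDC80 complex. SPC25 ran from 0.0732 through 0.210 to 0.276 CPM in 4OHT siSMARCA4, or 5 to 14 counts a library. Its log2 fold change against 4OHT siNT was 1.74 (SE 0.36 and adjusted p = 0.00225 by edgeR). SPC25 entered this test only through the DMSO siNT libraries. With the 2 compared groups fitted alone it did not pass the filter on low counts, and 46 members were tested. From the summed counts, 59 against 16, the ratio after scaling for library size was 3.41, with an exact 95% interval of 1.93 to 6.34 that covers counting error only. NDC80 ran from 0.351 through 0.644 to 1.12 CPM, a log2 fold change of 1.66 (SE 0.35 and adjusted p = 0.00248 by edgeR). NUF2, the partner of NDC80 at the microtubule end, was 9.08, 11.3, 7.48, 9.66 and 10.5 CPM in DMSO siNT, from 0.0878 through 0.158 to 0.356 CPM in 4OHT siNT and from 0.213 through 0.418 to 0.704 CPM in 4OHT siSMARCA4. It rose by 1.23 on the log2 scale (SE 0.35 and adjusted p = 0.0154 by edgeR). For each of the 3 genes the highest siNT library reached into the siSMARCA4 range. The remaining subunit, SPC24, had a log2 fold change of 0.73 (SE 0.26) that just missed the threshold (edgeR adjusted p = 0.0507).

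CDK1, the kinase that drives entry into mitosis, was 20.5, 23.4, 18.9, 22.3 and 26.1 CPM in DMSO siNT. Its levels ran from 0.176 through 0.516 to 0.730 CPM in 4OHT siNT and from 0.629 through 1.29 to 2.17 CPM in 4OHT siSMARCA4. The rise was 1.39 on the log2 scale (SE 0.31 and adjusted p = 0.0039 by edgeR). NUSAP1, which bundles microtubules near chromosomes, was 11.5, 12.6, 9.04, 8.93 and 8.16 CPM in DMSO siNT, from 0.246 through 0.297 to 0.549 CPM in 4OHT siNT and from 0.468 through 0.682 to 1.01 CPM in 4OHT siSMARCA4. It rose by 1.12 (SE 0.22 and adjusted p = 0.00165 by edgeR). In both genes 1 or more siSMARCA4 libraries lay within the siNT range.

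Both members called lower were among the 3 that 4OHT had reduced least. INCENP ran from 9.08 through 11.5 to 11.9 CPM in 4OHT siSMARCA4, below each siNT library, a log2 fold change of -0.46 (SE 0.11 and adjusted p = 0.00634 by edgeR). AURKA ran from 10.4 through 12.2 to 16.7 CPM, with its highest library inside the siNT range (log2 fold change -0.41 with an SE of 0.10, adjusted p = 0.00701 by edgeR). Its partner TPX2, which activates AURKA on the spindle, was 67.8, 79.2, 54.9, 63.5 and 54.8 CPM in DMSO siNT, from 8.41 through 9.45 to 11.0 CPM in 4OHT siNT and from 7.94 through 9.19 to 11.1 CPM in 4OHT siSMARCA4. TPX2 was not called (log2 fold change -0.04 with an SE of 0.11, adjusted p = 0.837 by edgeR). CENPF, a large kinetochore protein, was 57.4, 83.0, 36.0, 58.2 and 35.3 CPM in DMSO siNT, from 3.81 through 5.07 to 6.16 CPM in 4OHT siNT and from 3.12 through 4.07 to 6.02 CPM in 4OHT siSMARCA4 (log2 fold change -0.24 with an SE of 0.21, adjusted p = 0.436 by edgeR). SMC4, an ATPase shared by both condensins, was 86.7, 97.4, 59.4, 84.5 and 76.9 CPM in DMSO siNT, from 13.9 through 16.1 to 17.8 CPM in 4OHT siNT and from 14.0 through 15.5 to 17.1 CPM in 4OHT siSMARCA4 (log2 fold change -0.03 with an SE of 0.10, adjusted p = 0.853 by edgeR). The siNT and siSMARCA4 ranges of these 3 genes largely covered each other.

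For cyclin B1, FOXM1 and Ki-67 no change with siSMARCA4 passed the test over all libraries. CCNB1, the cyclin that activates CDK1, was 64.1, 68.6, 47.05, 54.1 and 55.1 CPM in DMSO siNT, from 9.74 through 10.4 to 11.7 CPM in 4OHT siNT and from 9.82 through 11.0 to 12.3 CPM in 4OHT siSMARCA4. Its log2 fold change with siSMARCA4 was 0.08 (SE 0.09 and adjusted p = 0.598 by edgeR). FOXM1, the transcription factor that drives the late mitotic genes, was 45.3, 51.4, 33.2, 37.9 and 27.3 CPM in DMSO siNT, from 1.92 through 2.75 to 3.32 CPM in 4OHT siNT and from 2.42 through 3.03 to 3.95 CPM in 4OHT siSMARCA4 (log2 fold change 0.25 with an SE of 0.18, adjusted p = 0.338 by edgeR). MKI67 ran from 0.734 through 1.18 to 2.05 CPM in 4OHT siSMARCA4 (log2 fold change 0.49 with an SE of 0.31, adjusted p = 0.274 by edgeR). In all 3 the libraries of siNT and siSMARCA4 overlapped. Within VM libraries alone MKI67 and FOXM1 were called higher, at log2 fold changes of 0.90 and 0.49 (adjusted p = 0.0271 and 0.0435 by edgeR). The same siSMARCA4 VM and siNT libraries were also compared in a fit of all libraries that split siSMARCA4 by tag. There the log2 fold changes were 0.89 and 0.48 and neither gene was called.

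**Figure D4:**
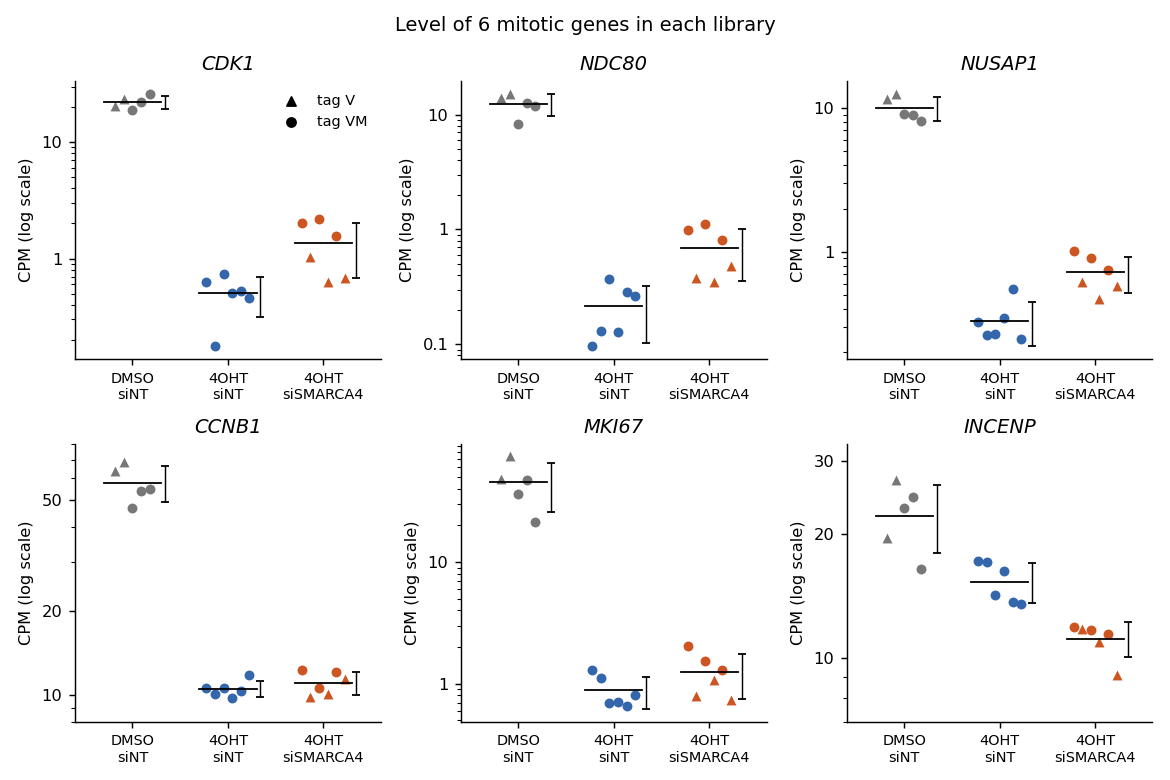
CPM on a log scale of CDK1, NDC80, NUSAP1, CCNB1, MKI67 and INCENP in each library of DMSO siNT with 5 libraries and 4OHT siNT and 4OHT siSMARCA4 with 6 each. Circles are VM and triangles V libraries, lines are means and bars SD. For CDK1 and NDC80 the 3 siSMARCA4 VM libraries lie above all siNT libraries, whereas for CCNB1 the groups overlap and for INCENP siSMARCA4 lies below siNT.

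All members are given by role, as mean ± SD in CPM in the order DMSO siNT with 5 libraries and 4OHT siNT and 4OHT siSMARCA4 with 6 each. Counts called with siSMARCA4 in a role stand beside the 10.4% higher and 13.8% lower of all genes tested, and roles of 3 to 8 genes were not compared with that share or with each other by a test. Of the 8 cyclins and mitotic kinases, CDK1, AURKB and PLK4 rose with siSMARCA4, AURKA fell, and 4 were not called. Split by tag, as described further on, 4 of the 8 were called higher in the VM and 0 in the V libraries. The shares of all genes tested were 11.0% and 4.46%. CCNA2, the cyclin of S phase and early mitosis, stood at 28.8 ± 2.87, 1.72 ± 0.372 and 1.78 ± 0.572. CCNB2, the Golgi-linked cyclin B, stood at 20.9 ± 3.83, 1.17 ± 0.288 and 1.21 ± 0.121. PLK1, a kinase used from mitotic entry to cytokinesis, stood at 33.3 ± 5.09, 1.76 ± 0.147 and 2.10 ± 0.336. These 3 were not called, with log2 fold changes of 0.05, 0.04 and 0.25. Of those already described, CDK1 averaged 22.2 ± 2.78, 0.504 ± 0.189 and 1.35 ± 0.671, CCNB1 57.8 ± 8.55, 10.5 ± 0.692 and 11.1 ± 1.06, and AURKA 38.4 ± 2.58, 17.3 ± 1.32 and 13.0 ± 2.41. AURKB, the kinase of the chromosomal passenger complex, stood at 13.5 ± 1.72, 0.847 ± 0.233 and 1.47 ± 0.491, a log2 fold change of 0.78 (SE 0.21 and adjusted p = 0.0124 by edgeR). PLK4, the kinase that starts centriole duplication, stood at 7.26 ± 1.85, 0.308 ± 0.0598 and 0.524 ± 0.137, a log2 fold change of 0.77 (SE 0.22 and adjusted p = 0.0149 by edgeR).

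The spindle checkpoint delays anaphase until each kinetochore is attached, and 3 of its 5 genes rose with siSMARCA4. Split by tag, as described further on, all 5 were called higher in the VM and 0 in the V libraries. BUB1, a kinase that recruits checkpoint proteins to kinetochores, stood at 18.9 ± 4.18, 0.524 ± 0.109 and 0.931 ± 0.266 (log2 fold change 0.83). TTK, the kinase MPS1 at the top of the checkpoint, stood at 11.7 ± 2.42, 0.366 ± 0.143 and 0.637 ± 0.199 (0.78). MAD2L1, which encodes the inhibitor MAD2, stood at 20.9 ± 3.02, 4.98 ± 0.585 and 6.55 ± 0.970 (0.39). Their edgeR adjusted p were 0.00759, 0.0318 and 0.0191. The call of TTK was kept in 11 of the 17 fits that left out 1 library, and that of MAD2L1 in 16. Not called were BUB1B (BUBR1), at 14.4 ± 3.95, 0.658 ± 0.220 and 0.855 ± 0.352, and CDC20, the activator that the checkpoint blocks, at 36.3 ± 5.46, 1.91 ± 0.134 and 2.33 ± 0.608.

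At the centromere and kinetochore 5 of 8 genes rose. With the siSMARCA4 libraries split by tag, as described further on, 6 of the 8 were called higher in the VM and 1 in the V libraries. The 1 in the V libraries was SPC25, which passed the filter only through DMSO siNT. Besides SPC25, NDC80 and NUF2, the genes that rose over all siSMARCA4 libraries were CENPE and CENPI. CENPE, a kinesin that carries chromosomes to the spindle equator, stood at 29.9 ± 5.11, 1.97 ± 0.423 and 3.00 ± 0.837, and CENPI, a constitutive centromere protein, at 11.2 ± 1.25, 1.04 ± 0.220 and 1.64 ± 0.299. Their log2 fold changes were 0.61 and 0.65 (edgeR adjusted p 0.0212 and 0.00438), and the call of CENPE was kept in 14 of the 17 fits that left out 1 library. CENPA, the histone H3 variant that marks centromeres, stood at 6.76 ± 0.916, 1.47 ± 0.313 and 1.55 ± 0.193, with a log2 fold change of 0.08. SPC24 stood at 8.84 ± 1.37, 0.873 ± 0.402 and 1.46 ± 0.401, and was called in 4 of the 17 fits that left out 1 library. The means of SPC25 were 5.54 ± 0.584, 0.0562 ± 0.0404 and 0.187 ± 0.0705, those of NDC80 12.4 ± 2.61, 0.214 ± 0.111 and 0.686 ± 0.328, those of NUF2 9.61 ± 1.46, 0.186 ± 0.105 and 0.443 ± 0.209, and those of CENPF 54.0 ± 19.7, 5.04 ± 0.802 and 4.28 ± 1.11.

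Of the 7 kinesins, KIF14 was called, 1 of 7 being near the share over all genes tested. Split by tag, 3 kinesins were called higher in the VM and 0 in the V libraries. KIF14, which acts in cytokinesis, stood at 8.94 ± 1.75, 1.49 ± 0.273 and 2.22 ± 0.381, a log2 fold change of 0.57 (SE 0.16 and adjusted p = 0.0127 by edgeR). KIF11, the Eg5 motor that pushes spindle poles apart, stood at 27.2 ± 7.15, 1.92 ± 0.460 and 2.39 ± 0.295. KIF20A and KIF23, motors of the central spindle, stood at 27.3 ± 6.91, 0.673 ± 0.185 and 0.921 ± 0.285, and at 35.0 ± 6.07, 7.34 ± 0.563 and 8.66 ± 0.972. KIF2C, the depolymerase MCAK, stood at 20.3 ± 2.66, 0.570 ± 0.166 and 0.813 ± 0.396. KIF4A, a chromokinesin, stood at 18.6 ± 2.77, 1.13 ± 0.147 and 1.18 ± 0.487, and KIF18A, which damps chromosome movement, at 11.9 ± 1.04, 1.40 ± 0.309 and 1.38 ± 0.177. The 6 kinesins not called had log2 fold changes from -0.03 to 0.51. Reads of KIF4A and of its near-identical copy KIF4B could be split between them in counting, but KIF4B held at most 0.095 CPM in any library.

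Of the 6 spindle and cytokinesis genes, NUSAP1 and ANLN rose. Split by tag, 3 were called higher in the VM and 1 in the V libraries. ANLN, the anillin that links the contractile ring to the membrane, stood at 90.5 ± 19.5, 3.64 ± 0.578 and 5.27 ± 1.65, a log2 fold change of 0.53 (SE 0.19) just inside the threshold (edgeR adjusted p = 0.049), and the call was kept in only 5 of the 17 fits that left out 1 library. PRC1, which bundles the central spindle, stood at 23.8 ± 3.60, 0.978 ± 0.139 and 1.25 ± 0.313, and ASPM, a spindle pole protein, at 22.1 ± 7.12, 0.577 ± 0.222 and 0.724 ± 0.161. ECT2 stood at 39.2 ± 3.45, 30.4 ± 2.72 and 32.4 ± 2.54 (log2 fold change 0.09 with siSMARCA4, SE 0.08). NUSAP1 averaged 10.1 ± 1.91, 0.333 ± 0.113 and 0.720 ± 0.204, and TPX2 64.0 ± 10.2, 9.53 ± 0.853 and 9.28 ± 1.26. The chromosomal passenger complex, which corrects faulty attachments, did not move as a unit. BIRC5, its survivin subunit, rose from 1.05 ± 0.193 to 2.00 ± 0.760 CPM (log2 fold change 0.91 with an SE of 0.21, adjusted p = 0.00486 by edgeR) after a DMSO level of 37.7 ± 5.71. INCENP fell, with means of 22.1 ± 4.17, 15.3 ± 1.70 and 11.1 ± 1.06, and CDCA8 (borealin) was not called, at 17.3 ± 2.40, 1.20 ± 0.207 and 1.32 ± 0.212.

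Among the 7 genes of chromosome structure and separation, TOP2A and NCAPG rose. Split by tag, 2 were called higher in the VM and 1 in the V libraries. TOP2A, the topoisomerase that untangles sister chromatids, stood at 95.5 ± 15.2, 3.94 ± 0.675 and 6.33 ± 2.11, a log2 fold change of 0.68 (SE 0.19 and adjusted p = 0.0134 by edgeR). NCAPG, a condensin I subunit, stood at 26.9 ± 4.02, 0.858 ± 0.178 and 1.60 ± 0.536, a log2 fold change of 0.90 (SE 0.20 and adjusted p = 0.00404 by edgeR). Its fellow condensin I subunit NCAPH stood at 9.88 ± 1.98, 0.623 ± 0.176 and 0.731 ± 0.273, and SMC2, the partner ATPase of SMC4, at 34.4 ± 3.65, 13.7 ± 1.48 and 14.0 ± 0.639. SMC4 itself averaged 81.0 ± 14.1, 15.8 ± 1.54 and 15.4 ± 1.12. ESPL1, the separase that cuts cohesin, stood at 8.39 ± 1.80, 2.93 ± 0.237 and 3.77 ± 0.944, and its inhibitor PTTG1 (securin) at 28.9 ± 5.02, 5.80 ± 0.797 and 6.002 ± 0.784. NCAPH, SMC2, ESPL1, PTTG1 and SMC4 were not called. Reads of PTTG1 could be split with its copies, but PTTG2 was listed at 0 and PTTG3P held at most 0.017 CPM. Of the transcription factors, MYBL2, the partner of MuvB, stood at 15.6 ± 2.75, 0.401 ± 0.151 and 0.816 ± 0.522, and its log2 fold change of 1.03 (SE 0.37) just missed the threshold (edgeR adjusted p = 0.0536). It was called in 5 of the 17 fits that left out 1 library (without siNT 2-1VM or 2-3VM, or siSMARCA4 2-3V, 4-2V or 4-3V). FOXM1 averaged 39.0 ± 9.56, 2.62 ± 0.561 and 3.12 ± 0.639, and MKI67 45.2 ± 19.3, 0.879 ± 0.261 and 1.25 ± 0.499.

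Against the DMSO level the return was small. All 47 genes were lower in 4OHT siSMARCA4 than in DMSO siNT by the test, against 28.6% of all genes tested, and for all 47 the libraries did not overlap, against 19.9%. The median log2 fold change was -3.79. The median gene stood at 7.21% of its DMSO level, compared with 6.08% in 4OHT siNT. Among the 17 called higher, the median went from 3.31% to 6.06% of DMSO, and the range in 4OHT siSMARCA4 was 3.38% to 31.3%. Measured as the part of the drop from DMSO to 4OHT siNT that was regained, the median over all 47 was 1.55%, and the 17 called higher ran from 1.87% to 9.86%, with MAD2L1 and KIF14 the highest of them. The 3 genes that had dropped least gave the widest values, at 22.1% for ECT2, which was not called, and -20.4% and -61.4% for AURKA and INCENP, which moved further from DMSO. As the 3 contrasts share libraries, these are values side by side and not independent results.

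The siSMARCA4 libraries did not behave as a single group for these genes. In the libraries tagged VM the median member stood at 8.09% to 9.80% of its DMSO mean, in those tagged V at 5.53% to 6.09%, and in 4OHT siNT, all VM, at 4.79% to 6.72%. The V libraries thus lay inside the siNT range and the VM libraries above it. With the siSMARCA4 libraries split by tag, a comparison chosen after the values were seen, 43 of 47 genes had a higher fitted level in VM than in V, and 8 were called higher, against 0.976% of all genes tested. The 8 were MYBL2, CDK1, KIF2C, BIRC5, AURKB, TOP2A, CCNA2 and CDC20, with log2 differences from 1.75 for MYBL2 (SE 0.31 and adjusted p = 0.00696 by edgeR) to 0.60 for CDC20 (SE 0.15 and adjusted p = 0.0414 by edgeR). For 30 of 47 each VM library lay above each V library, against 10.6% of all genes tested. Each tag was also set against all 6 siNT libraries. The VM libraries gave 25 genes called higher, against 11.0% of all genes tested, and the V libraries gave SPC25, NUSAP1 and ESPL1, against 4.46%. SPC25 entered these tests only through the DMSO siNT libraries and held 5 to 11 counts in a V library. Within VM libraries alone, 27 of 47 were called higher in siSMARCA4 than in siNT, against 11.6%. As all siNT libraries were VM, this compared the same libraries that gave the 25 above and is not separate support. The same comparison within V could not be made.

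Other measures moved with the tag. SMARCA4 itself stood at 71.9 ± 5.54 CPM in the VM and 104 ± 22.0 CPM in the V libraries of siSMARCA4 (n = 3 each), a log2 difference of -0.54 (SE 0.13 and adjusted p = 0.0309 by edgeR). The siRNA number was unevenly spread too, with 2 of 3 libraries of number 2 tagged VM and 1 of 3 of number 4. In DMSO siNT the order was the other way round, with the median member at 106% and 121% in the V libraries and 84.2%, 100.1% and 88.7% in the VM libraries. Within number 2 the median member stood at 9.80% and 8.99% in the VM libraries and 5.78% in the V library. Within number 4 it stood at 8.09% in the VM library and 5.53% and 6.09% in the V libraries. VM lay above V with either number, but each order rests on 1 library on one side. The tag and the depth of knockdown cannot be told apart in these libraries, and the part of the siRNA number in this split was not tested.

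**Figure D5:**
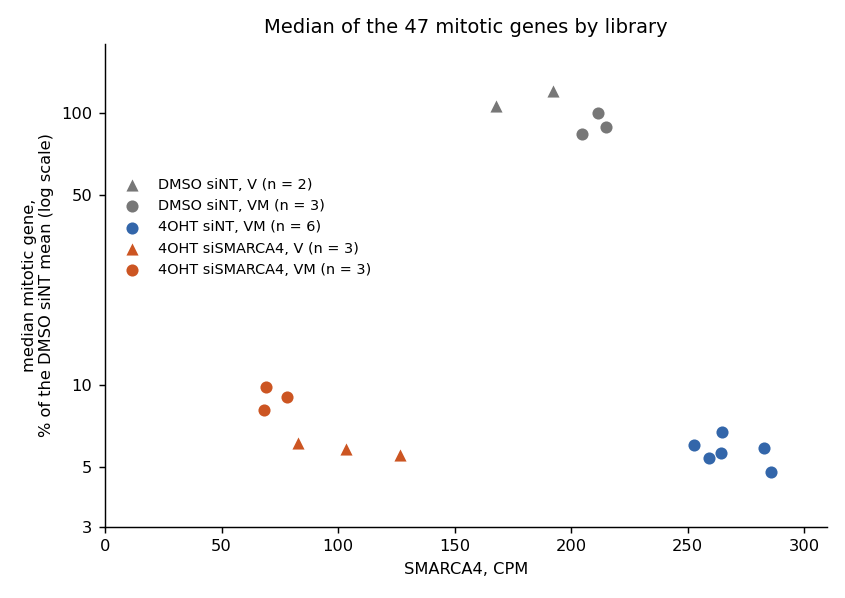
Median over the 47 mitotic genes of the level as a percentage of the DMSO siNT mean (log scale) against SMARCA4 in CPM, 1 point per library, with circles for VM and triangles for V. The 3 siSMARCA4 VM libraries have SMARCA4 at 68.4 to 78.3 CPM and medians of 8.09% to 9.80%, and the 3 V libraries SMARCA4 at 82.7 to 127 CPM and medians of 5.53% to 6.09%.

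By siRNA number, number 2 gave 18 members called higher against 4OHT siNT (median log2 fold change 0.49), where 12.6% of all genes tested were called higher. Number 4 gave 7 (median 0.26), where 8.14% were. Both contrasts used the same 6 siNT libraries. With the libraries of number 4 fitted alone, 3 against 3, NDC80 and NUSAP1 were the 2 members called higher, where 3.64% of all genes tested were. Tested directly, no member differed between number 2 and number 4 at an adjusted p under 0.05, where 0.293% of all genes tested did, while 6 members had an unadjusted p under 0.05 and DESeq2 also called 0. The count was 7 without siSMARCA4 library 4-2VM, 1 without siSMARCA4 library 2-3V and 5 with no filter on low counts. The first removal left number 4 with V libraries only, and the other left number 2 with VM libraries only. Number and tag were then more closely tied. Over all libraries the fold change was above 0, that is higher with number 2, for 39 of 47.

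How far members varied together from library to library was described within each group. Over pairs of members within DMSO siNT the median Pearson correlation of log2 CPM was 0.83, with 97.3% of pairs above 0. Within 4OHT siNT it was 0.11, with quartiles at -0.29 and 0.44 and 57.0% of pairs above 0. Within 4OHT siSMARCA4, whose libraries also stood apart by tag, it was 0.60, with 83.2% above 0. For pairs of all genes tested it was 0.01 or less in each group. Each value rests on 5 or 6 libraries that share depth and scaling, and 19 members averaged under 1 CPM in 4OHT siNT, so these are descriptions only. In DMSO siNT, library 2-2V held the highest level of 44 of 47 genes, for which the share over all genes tested was not computed. In 4OHT siSMARCA4, library 2-1VM held the highest level of 20 of 47, against 12.4% of all genes tested. Per kilobase of exon, CCNB1 was the most abundant member in DMSO siNT at 23.7 CPM per kilobase and ESPL1 the least at 0.945.

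Genes around these members were read from lists of related genes, beside which the shares of all genes tested were 27.4% lower and 27.0% higher with 4OHT and 10.4% higher and 13.8% lower with siSMARCA4. Of 34 other mitotic entry, spindle and cytokinesis genes, 30 were lower in 4OHT siNT than in DMSO siNT (median log2 fold change -2.65), and with siSMARCA4 12 were called higher and 3 lower (median 0.23). DEPDC1 and NEK2, a centrosomal kinase, rose by 1.05 and 0.89, and CIT, the citron kinase of cytokinesis, and CKAP5, a microtubule polymerase, fell by 1.27 and 0.38 on the log2 scale. Split by tag, the siSMARCA4 VM libraries gave 14 of these 34 genes called higher than siNT and the V libraries 1. The shares of all genes tested were 11.0% and 4.46%. Of 33 other centromere and kinetochore genes, 27 were lower with 4OHT (median -0.94), and with siSMARCA4 8 were called higher, led by SKA1 (1.17) and CENPM (1.16), and only CENPO lower (-0.46). Split by tag in the same way, 10 of the 33 were called higher in VM and 3 in V. Of 17 cohesin and condensin partners, 12 were lower with 4OHT. With siSMARCA4, SGO1, the guardian of centromeric cohesion, and RAD21, the cohesin subunit that separase cuts, rose by 1.10 and 0.21, while NCAPD2 and SMC1A fell by 0.41 and 0.34. The anaphase-promoting complex, the ubiquitin ligase that CDC20 activates, had 6 of its 15 genes lower with 4OHT and 2 higher (median -0.16), and with siSMARCA4 3 were higher, led by ANAPC10 (0.54), and 2 lower, FZR1 (-0.22) and ANAPC5 (-0.21).

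Of 25 genes that control mitotic transcription, 13 were lower and 9 higher in 4OHT siNT than in DMSO siNT, beside 27.4% and 27.0% of all genes tested, and with siSMARCA4 3 were higher and 3 lower, close to the 10.4% and 13.8% of all genes tested. E2F5 and LIN9, a MuvB subunit, rose by 0.53 and 0.52 on the log2 scale. CDKN2B and CDKN2A, inhibitors of the kinases CDK4 and CDK6, fell by 0.66 each, from 352 ± 24.8 to 223 ± 12.7 CPM and from 115 ± 7.91 to 73.1 ± 12.1 CPM. Of 40 DNA replication genes, 38 were lower with 4OHT (median log2 fold change -1.58), and with siSMARCA4 8 were higher and 4 lower (median 0.02). RRM2, a subunit of ribonucleotide reductase, and CLSPN, a fork protein, rose by 0.90 each, whereas CDK2 and MCM3 fell by 0.76 and 0.55. The difference between the mitotic and the replication genes was not tested.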

How the data were processed

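RNA of the 17 libraries had been enriched for poly(A), prepared with a directional kit and sequenced as read pairs. Each library had its own table, in which the authors deposited expected counts of genes and repeat loci, in whole numbers and without normalisation. They had trimmed reads with cutadapt 4.7, aligned them with HISAT2 2.2.1 to GRCh38 (versions from the submitters' processing notes) and counted with TElocal, reverse-stranded, which shares a multi-mapping pair among its positions. Multi-mapping reads can therefore add to near-identical genes.

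Locus counts were summed per repeat subfamily (1261) and joined to the 62754 genes, and low rows were removed by filterByExpr (minimum count 10, minimum total 15). Library sizes were scaled by TMM (0.949 to 1.08). All 17 libraries entered a quasi-likelihood fit in edgeR 4.0.16 (R 4.3.3), each group being a term, and p-values were adjusted over the 19473 genes. DESeq2 1.42.0, other scalings, filters, subsets of libraries, blocks and the removal of each library were alternatives. Intervals cover counting error only. Gene names and exon lengths came from GENCODE 44 on GRCh38, a later annotation than the one counted, and Python 3.11.15 was used for tables. Groups came from the labels. The members and lists were chosen with earlier results of these data known. Values per library (in groups of 6, the lowest, median and highest) are given for CCNB1, CDK1, MKI67, FOXM1, the 3 largest and 3 smallest changes with 4OHT, the 5 highest and 5 lowest with siSMARCA4, and SMARCA4, group means for all members, and, of the other lists, up to 2 highest and 2 lowest genes called with siSMARCA4. Repeats were not analysed here. The level of 1 marker gene is not reported here.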

Additional observations from a re-analysis of the deposited data

Results flagged for a closer look

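Within each group, the highest and the lowest library of each of the 47 genes was compared with its nearest neighbour, and 4 of 141 checks stood out by Dixon's criterion, where chance alone flags about 1 in 20. CCNB2 in 4OHT siNT was 1.73 CPM in library 2-2VM, with the next library at 1.19. SPC25 was 0.131 CPM and NUSAP1 0.549 CPM in 4OHT siNT library 2-3VM, with the next libraries at 0.0575 and 0.345. That library had the fewest counts of the series (39.1 M). The SPC25 value was 5 counts, against 1 to 3 in the other siNT libraries, and the chance rate was not checked for counts this low. INCENP was 9.08 CPM in 4OHT siSMARCA4 library 4-3V, with the next at 10.9. The causes were not tested.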

How the results depend on the processing

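All counts of members lower in both comparisons with DMSO siNT were 46 or 47 under the alternatives run. The count of 17 higher with siSMARCA4 was 14 to 19 with DESeq2, median-ratio scaling, other filters, genes alone, the 2 groups alone or the tag as a covariate. The covariate was fitted over DMSO siNT and siSMARCA4 together, where V and VM stood in opposite order. As all siNT libraries were VM, that fit cannot remove the tag from this contrast. With the 2 groups alone the count was 14 of 46 members tested, as SPC25 did not pass the filter there. It was 12 for siRNA number 2 alone, 2 for siRNA number 4 alone (3 libraries a group), 27 in VM libraries alone, and, chosen after seeing the data, 25 with the siSMARCA4 VM libraries and 3 with the V libraries against all siNT. The counts of 27 and 25 compare the same siSMARCA4 and siNT libraries. The 3 of the V libraries include SPC25, which passed the filter only through DMSO siNT. The count lower was 1, 0 and 1 for number 2, number 4 and the V libraries. Leaving out 1 library gave 13 to 19 higher, 2 lower, and 47 lower against DMSO in both. The medians then ranged from -4.11 to -3.98, 0.30 to 0.42 and -3.93 to -3.70. Members differing between the siRNA numbers were 5 with no filter on low counts, and 0 to 7 with 1 library left out: 7 without siSMARCA4 4-2VM and 1 without 2-3V. These 2 removals left number 4 with V libraries only and number 2 with VM libraries only. The median of siSMARCA4 against DMSO was -3.39 in VM libraries alone. CHR matches were in 52.4% of promoters when only the 250 bases before the start were searched.

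The labels give no shared source for the replicate numbers. With the tag number as a replicate block, 19 members were higher and 2 lower, and with the whole tag as block 17 and 2. Deviations of same-numbered siNT and siSMARCA4 libraries from their group means correlated at -0.09 to 0.06, and those of DMSO siNT and 4OHT siNT at 0.36, -0.15 and 0.57. Those of DMSO siNT and 4OHT siSMARCA4 correlated at -0.04 to 0.05. By whole tag, siNT and siSMARCA4 gave -0.0029, 0.01 and 0.28, DMSO siNT and 4OHT siNT -0.07 and 0.57, and DMSO siNT and siSMARCA4 0.12, -0.04 and 0.32. Tag 3VM was above 0 in each pair of groups. These mixed values do not settle whether libraries were paired, and the main fit did not pair them. Of the 19 members called with siSMARCA4, 15 kept their call in all 17 fits that left out 1 library. ANLN, TTK, CENPE and MAD2L1 kept it in 5, 11, 14 and 16. MYBL2 and SPC24, not called, were called in 5 and 4 of those fits. NDC80 and NUSAP1 were called under all 29 alternatives fitted for single genes, which leave out the split by tag. With the V libraries against all siNT, NDC80 was not called (log2 fold change 0.90, edgeR adjusted p = 0.0885).

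Fold changes near 0 changed sign: CENPF 0.0282 in VM libraries alone, TPX2 0.0977, 0.129, 0.0331, 0.00618, 0.00289 and 0.00034 (number 2 alone, VM alone, whole-tag block, and without siNT 4-3VM, siSMARCA4 2-3V or 4-3V, the range with 1 library left out being from -0.0954), SMC4 0.00469, 0.0268, 0.00334 and 0.0119 (no filter, number 4 alone, VM alone, and without siNT 2-3VM, from -0.0661 with 1 library left out), and FOXM1 -0.0626 (number 4 alone). The causes were not tested. Depth limits the low members: SPC25 rested on 1 to 14 counts in a 4OHT library. NDC80 and NUF2 rested on 5 to 21 and 4 to 20 counts in a 4OHT siNT library.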
